A study of Mus musculus with 35 samples.

Results

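For the 69 genes described here, striatal RNA was read as a share of each library's counts. Each gene was higher in every mouse that lacked Hdac2 in its medium-spiny neurons than in any mouse with intact Hdac2. With totals scaled by TMM, an alternative normalization, 48 of the 69 kept this separation, and 61 did so without mitochondrial counts. The 69 genes were chosen by their measured counts, so the separation itself is a description and not a finding. Each count was divided by the library's total of counts outside the ERCC spike-ins and scaled to CPM, the counts in each 1000000. Of the 39109 entries in the count table, 14808 spanned more than 250 bases, were not spike-ins and reached a mean of at least 1 CPM over the 20 Hdac2 KO libraries. In 72 of these (0.486%) the lowest KO library lay above the highest of the 15 Hdac2 WT libraries, while 26 (0.176%) were fully separated downward. Hdac1, Chrnb4 and Frem3 met the rule and were left out by name, as were Myo5c, Dmkn and Ppp1r1b, whose groups overlapped, which left 69 members (0.466% of eligible genes).

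HDAC2 is a class I histone deacetylase. It removes acetyl groups from histone tails within the Sin3, NuRD and CoREST corepressor complexes, where its paralog HDAC1 is the alternative catalytic subunit, and it is known in neurons as a brake on genes of synaptic plasticity. Medium-spiny neurons are the GABAergic projection neurons that make up most of the striatum and the cells most affected in Huntington's disease.

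The authors sequenced striatal RNA from 35 mice, 1 library per mouse, to ask how loss of Hdac2 in these neurons changes transcription with and without a Huntington's disease allele. The 15 Hdac2 WT mice (Hdac2+/+, Cre-negative) were Htt+/+ in 8 cases (5 male, 3 female) and HttQ111/+ in 7 cases (4 male, 3 female). The 20 Hdac2 KO mice (Hdac2D/D in the labels, homozygous for the floxed allele and positive for the D9-Cre transgene) were Htt+/+ in 9 cases (5 male, 4 female) and HttQ111/+ in 11 cases (8 male, 3 female). Library totals ran from 50970712 to 77867348 counts. The HttQ111 allele is a knock-in with an expanded CAG tract, of 110 to 140 repeats in the WT mice and 110 to 144 repeats in the KO mice, against 7 in Htt+/+ mice. Ages ran from 21.71 to 23 weeks. D9-Cre is driven by a Ppp1r1b (DARPP-32) genomic fragment that is active in medium-spiny neurons from a few weeks after birth, and the deletion is aimed at these neurons alone. Whether other striatal cells kept Hdac2 cannot be read from these counts. By immunostaining, the authors found that the striatal cells still positive for HDAC2 were negative for DARPP-32. No Hdac2 WT mouse carried Cre, so the transgene and the deletion cannot be told apart. The floxed line came from a mixed C57BL/6 and 129SeEv background and was then crossed to C57BL/6J. The authors class Cre-negative mice as Hdac2 WT with or without floxed alleles. How far the genotypes differ in strain sequence linked to the floxed allele is therefore not known, and such sequence and the deletion cannot be told apart either.

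Hdac2 itself was read first, as a check of the labels. It ran from 91.8 to 109 CPM (median 101) in the WT libraries and from 87.2 to 103 CPM (median 94.0) in the KO libraries. The groups overlapped, and the mean ratio of KO to WT was 0.933. The count is for the gene as a whole in all striatal cells. The floxed segment is a part of the gene and its loss is aimed at 1 cell class, so this value cannot test the deletion. The authors report a marked loss of reads from the floxed exons in the KO mice, and loss of HDAC2 protein by western blot. The separation holds by construction: in each of the 35 libraries, the median over members of the log2 ratio to the WT mean lay between -0.09 and 0.07 in WT mice and between 0.61 and 0.78 in KO mice. It spanned 0.66 to 0.78 in Htt+/+ KO libraries and 0.61 to 0.73 in HttQ111/+ KO libraries. The rule fixes this order, so it is no check of the labels.

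Among the members, the ratio of the KO mean to the WT mean ran from 1.15 to 9.28, with a median of 1.61. It was at least 3 in 9 members, 2 to under 3 in 11, 1.5 to under 2 in 24 and under 1.5 in 25. Levels in WT striatum varied widely: 9 had a WT mean under 1 CPM, 24 lay from 1 to under 10 CPM, 31 from 10 to under 100 CPM, and 5 at 100 CPM or more. The gap between the groups was narrow for many. HttQ111/+ KO replicate 8 held the lowest KO value of 17 members, and HttQ111/+ WT replicate 5 the highest WT value of 13. The lowest KO library exceeded the highest WT library by a factor of at least 1.5 in 6 members and of at least 1.2 in 12, and the median factor over all members was 1.08. The median coefficient of variation was 13.2% in WT and 11.1% in KO libraries, against 9.52% and 9.47% over the 14808 eligible genes.

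**Figure D1:**
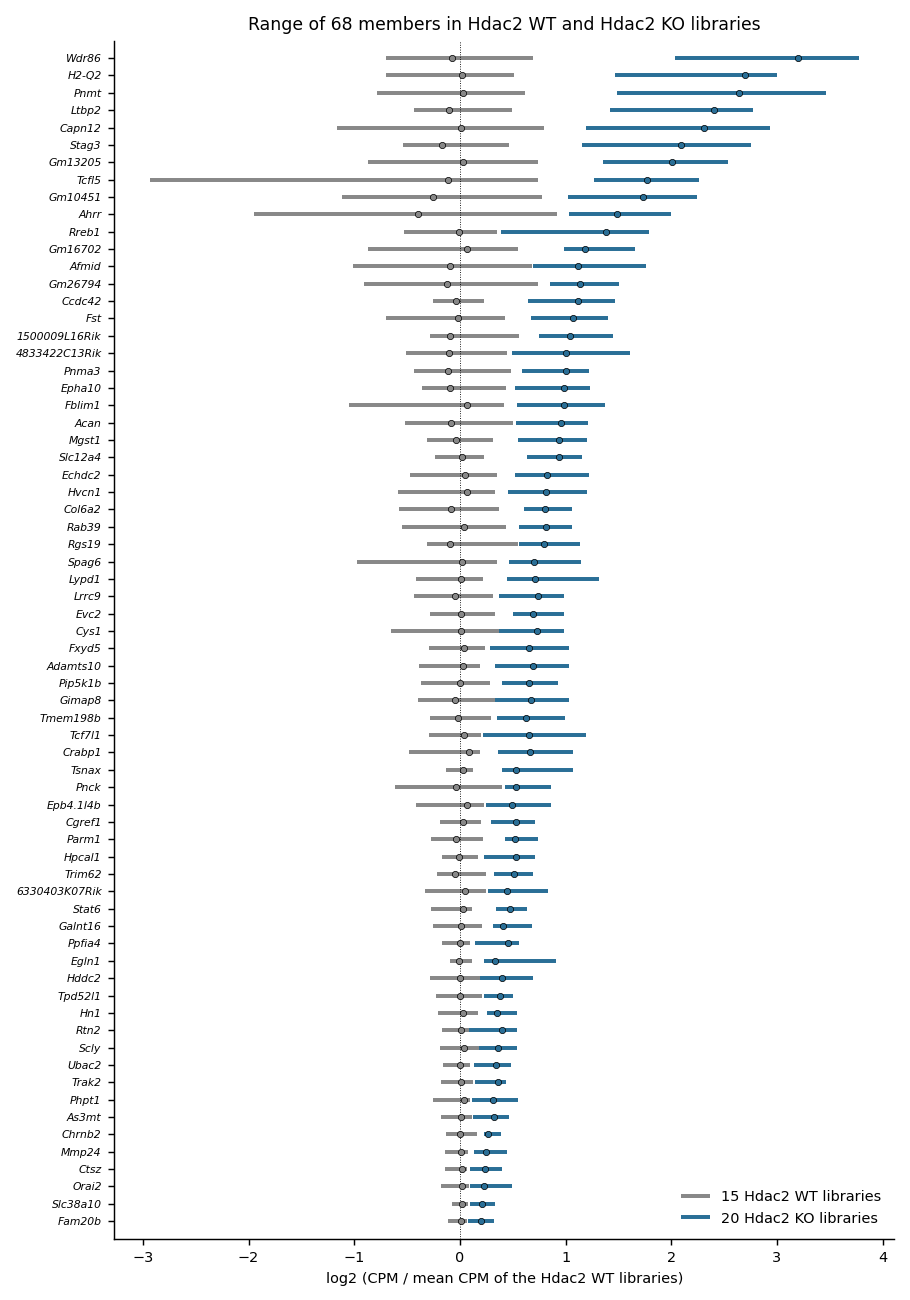
Range of 68 of the 69 members over the 15 WT libraries (grey) and the 20 KO libraries (blue), as log2 of CPM over the WT mean, with a dot at each group's median. The ranges do not meet in any member drawn, which the selection required, and the ratio of means falls from 9.28 for Wdr86 to 1.15 for Fam20b.

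The threshold fell within a continuum. Just inside it, the lowest KO library of Scly was at 11.36 CPM and its highest WT library at 11.35 CPM. The next members were Afmid, Gimap8, Hddc2 and Rtn2, with ratios of lowest KO to highest WT of 1.0007, 1.0009, 1.001 and 1.0022. Just outside lay Ube2q1, whose lowest KO library was at 77.19 CPM against 77.21 CPM in the highest WT library. It was followed by 2610318N02Rik, Epb4.1l2, Rgl1 and 2810011L19Rik at ratios of 0.998, 0.997, 0.997 and 0.996.

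The members are ordered here by what their products do, an order set after their values were seen. The largest ratio belonged to Wdr86, which encodes a WD-repeat protein. Its WT libraries held 0.307 to 0.802 CPM (median 0.471) and its KO libraries 2.03 to 6.82 CPM (median 4.56), a ratio of means of 9.28. H2-Q2, a class I MHC gene of the Qa region, ran from 0.901 to 2.08 CPM (median 1.48) in WT and from 4.06 to 11.7 CPM (median 9.48) in KO libraries. Both genes were low in all 15 WT libraries and higher in all 20 KO libraries, with the H2-Q2 value of Htt+/+ KO replicate 1 the lowest of its genotype. Nearby MHC genes had smaller ratios, at 1.25 for H2-D1, 1.09 for H2-Q4 and 1.13 for H2-Q6, each with overlapping groups. H2-Q2 has close paralogs in that region, and the counts rest on uniquely aligned reads.

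Several members encode enzymes. Pnmt encodes the enzyme that converts noradrenaline to adrenaline. It ran from 0.427 to 1.13 CPM (median 0.753) in WT and from 2.07 to 8.13 CPM (median 4.60) in KO libraries, a ratio of 6.20. That ratio was 8.32 in Htt+/+ mice and 4.47 in HttQ111/+ mice. Capn12, a calpain protease, held 0.139 to 0.542 CPM (median 0.314) in WT and 0.712 to 2.39 CPM (median 1.55) in KO libraries. The end of Capn12 overlaps Actn4 on the other strand, which was far more abundant (104 CPM in WT, 111 CPM in KO). Afmid, which hydrolyses formylkynurenine in tryptophan breakdown, had means of 1.42 ± 0.494 and 3.21 ± 0.626 CPM (SD) in WT and KO, and nearly its whole interval is shared with Gm20708 on the same strand (1.03 and 2.34 CPM). Mgst1, a membrane glutathione transferase, had means of 11.3 ± 1.37 and 21.4 ± 2.25 CPM. Lower ratios were seen for Echdc2 (1.81), Scly, the selenocysteine lyase (1.27), As3mt, the arsenic methyltransferase (1.24), and Phpt1, a phosphohistidine phosphatase (1.24). Phpt1 lies almost wholly within Mamdc4 on the same strand (17.1 and 21.3 CPM), so reads of the pair may be counted for both.

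Further members regulate transcription. Tcfl5, a basic helix-loop-helix factor known from the testis, ran from 0.115 to 1.47 CPM (median 0.816) in WT and from 2.12 to 4.23 CPM (median 3.00) in KO libraries. Ahrr, the repressor of the aryl hydrocarbon receptor, held 0.145 to 1.054 CPM (median 0.424) in WT and 1.14 to 2.22 CPM (median 1.56) in KO libraries. Rreb1, a zinc finger factor that binds Ras-responsive elements, stood at 32.7 to 60.0 CPM (median 46.7) in WT and 61.5 to 163 CPM (median 123) in KO libraries. Its ratio of means was 2.51, and its KO values spread widely, down to a lowest library just above the highest WT library. Tcf7l1, a transcription factor of the Wnt pathway, had a ratio of 1.57, and Stat6, the factor activated by interleukin-4, one of 1.39. Stag3, a cohesin subunit of meiotic chromosomes, ran from 0.537 to 1.08 CPM (median 0.695) in WT and from 1.74 to 5.25 CPM (median 3.33) in KO libraries. Its groups were separated by a factor of 1.61 between the closest libraries.

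**Figure D2:**
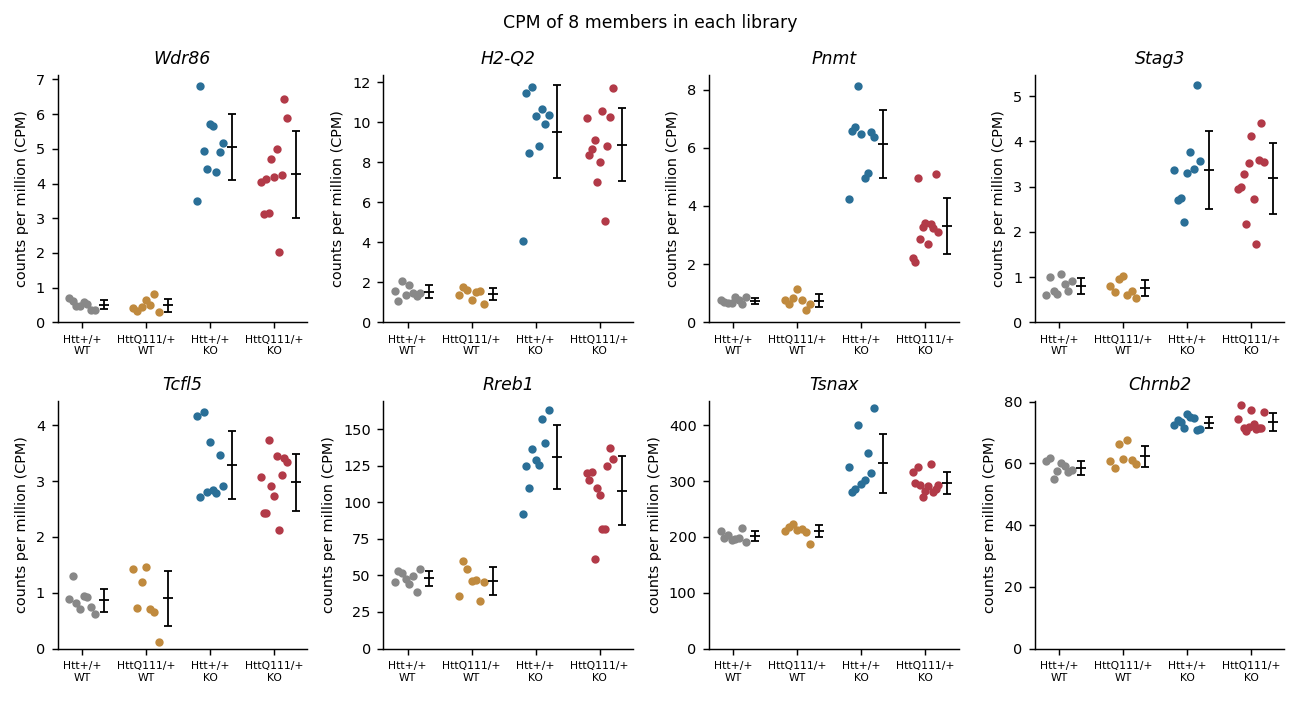
CPM of 8 members in each library, by genotype group, with the group mean and SD as black bars. In each panel the lowest KO point lies above the highest WT point, and in Pnmt 9 of the 11 HttQ111/+ KO points lie below every Htt+/+ KO point, with medians of 3.23 and 6.48 CPM.

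Several members act outside the cell or at its surface. Ltbp2, a secreted protein of elastic microfibrils, ran from 0.345 to 0.660 CPM (median 0.434) in WT and from 1.25 to 3.19 CPM (median 2.48) in KO libraries. Fst encodes follistatin, a secreted antagonist of activin, and held 3.00 to 6.57 CPM (median 4.84) in WT and 7.81 to 12.9 CPM (median 10.3) in KO libraries. Acan, whose product aggrecan builds perineuronal nets, had means of 3.12 ± 0.752 and 6.03 ± 0.889 CPM (SD) in WT and KO. Col6a2, a chain of collagen VI, had means of 15.6 ± 2.88 and 27.6 ± 2.23 CPM. The proteases Adamts10 and Mmp24 had ratios of 1.61 and 1.196. Fam20b, the kinase that phosphorylates xylose in proteoglycan linkers, ran from 103 to 117 CPM (median 112) in WT and from 117 to 139 CPM (median 128) in KO libraries, and Galnt16, which starts O-glycosylation, had a ratio of 1.36. Fam20b thus had the smallest ratio of all members (1.15) and still did not overlap, since its libraries varied little. Epha10, an Eph receptor without kinase activity, had means of 15.6 ± 2.47 and 30.6 ± 3.86 CPM. Parm1, a mucin-like membrane protein, had a ratio of 1.45.

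A few members are channels, receptors or transporters. Chrnb2, the beta2 subunit of neuronal nicotinic receptors, ran from 54.9 to 67.6 CPM (median 60.2) in WT and from 70.5 to 79.0 CPM (median 72.6) in KO libraries, a modest but complete shift. Lypd1, a Ly6-type protein that binds nicotinic receptors, held 63.5 to 98.9 CPM (median 85.3) in WT and 115 to 212 CPM (median 139) in KO libraries. Solute carriers among the members were the potassium-chloride cotransporter Slc12a4, with means of 19.0 ± 1.63 and 35.3 ± 3.49 CPM, and the amino acid transporter Slc38a10, with means of 96.7 ± 3.47 and 112 ± 4.63 CPM. Hvcn1, the voltage-gated proton channel, had a ratio of 1.79, the calcium channel Orai2 one of 1.18, and Fxyd5, a regulator of the sodium pump, one of 1.61.

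Other members take part in signalling and trafficking. Tsnax encodes translin-associated factor X, a partner of the RNA-binding protein translin. It ran from 188 to 223 CPM (median 209) in WT and from 271 to 432 CPM (median 296) in KO libraries. Egln1, the prolyl hydroxylase that marks hypoxia-inducible factor for decay, ran from 95.9 to 111 CPM (median 102) in WT and from 120.1 to 192 CPM (median 129) in KO libraries. In both genes the highest values came from the same mice: Tsnax reached 432 and 401 CPM, and Egln1 192 and 166 CPM, in Htt+/+ KO replicates 9 and 4. Trak2, an adaptor that links mitochondria to kinesin, held 288 to 355 CPM (median 327) in WT and 358 to 441 CPM (median 417) in KO libraries. Rgs19, which speeds GTP hydrolysis on inhibitory G proteins, had means of 9.58 ± 1.76 and 16.6 ± 1.74 CPM. Crabp1, which binds retinoic acid, had a ratio of 1.56. The calcium-dependent kinase Pnck, the calcium sensor Hpcal1 and the lipid kinase Pip5k1b had ratios of 1.504, 1.43 and 1.60. Ppfia4, a liprin of presynaptic terminals, had a ratio of 1.35, the reticulon Rtn2 one of 1.29, and the lysosomal protease Ctsz one of 1.18.

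Genes of cilia and sperm tails also met the rule. Ccdc42, needed for the sperm tail, had means of 2.71 ± 0.281 and 5.96 ± 0.812 CPM (SD) in WT and KO. Spag6, a protein of the axoneme's central pair, had a ratio of 1.68, with the reservation that close paralogs may limit unique alignment. Evc2 and Cys1, both proteins of the primary cilium, had ratios of 1.63 and 1.61. No member was in the list of ependymal markers, the multiciliated cells of the brain, whose summed level was 13.3 CPM in WT and 13.6 CPM in KO libraries.

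By annotation 64 members were protein coding (92.8%, against 90.1% of eligible genes), 3 were lincRNAs and 2 antisense transcripts. Names without a gene function covered 7 members (10.1%, against 11.9% of eligible genes). Gm13205, which lies wholly within Casz1 on the other strand, ran from 0.434 to 1.32 CPM (median 0.812) in WT and from 2.03 to 4.62 CPM (median 3.19) in KO libraries. Casz1 itself was at 2.26 CPM in WT and 3.15 CPM in KO. Gm10451 had a ratio of 3.41, Gm16702, which lies within Sft2d1 on the other strand, one of 2.32, and Gm26794, which overlaps Kcnj3 on the other strand, one of 2.22. Sft2d1 was at 15.5 CPM in both genotypes, whereas Kcnj3 was at 26.3 CPM in WT and 34.6 CPM in KO. 1500009L16Rik and 4833422C13Rik had ratios of 2.07 and 2.01. 6330403K07Rik, at a ratio of 1.41, was the most abundant member per length of exon, with 154 CPM per kb of exon in KO libraries, followed by Tsnax with 79.9 and Trak2 with 57.4 CPM per kb of exon. In all, 25 members overlap another entry, 6 of them on the same strand and 20 on the other. The strand used in counting is not stated, but female libraries held 102834 to 182622 Xist counts against 20 to 132 counts of Tsix, which overlaps Xist on the other strand.

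Further members had ratios within this range. They included Pnma3 (2.00), a gene derived from a retrotransposon gag, Fblim1 (1.94), which binds filamin, Rab39 (1.76), a small GTPase, Lrrc9 (1.65) and Tmem198b (1.58). Gimap8, an immune-associated GTPase, had a ratio of 1.59, and Epb4.1l4b, Cgref1 and the ubiquitin ligase Trim62 had ratios of 1.47, 1.45 and 1.43. Hddc2, Tpd52l1, Hn1 and Ubac2 had ratios of 1.31, 1.30, 1.30 and 1.26.

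Members were spread over the genome, with 7 on chromosome 5 and 6 each on chromosomes 2, 4, 10, 11 and 12. Chromosome 12 had the most per 1000 eligible genes (11.4). Chromosomes 15 and 18 had none. Neighbouring pairs within 100 kb were Hddc2 with Tpd52l1 on chromosome 10, whose intervals lie 4.18 kb apart, and Egln1 with Tsnax on chromosome 8, 63.7 kb apart. Neither pair had an eligible gene between its members. Hddc2 and Tpd52l1 converge, whereas Egln1 and Tsnax are transcribed away from each other. Genes on either side had ratios closer to 1, at 0.945 for Gm5422 beside Hddc2, and 0.935 for Sprtn and 1.15 for Disc1 beside Egln1 and Tsnax. Hddc2 and Tpd52l1 lie 5.65 and 5.53 Mb from Hdac2, and the other 4 members of chromosome 10 lie 39.6 to 91.8 Mb from it, so linked strain sequence and the deletion cannot be told apart for the nearer pair.

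Pnmt lies 29.2 kb from Ppp1r1b, the gene whose fragment drives the Cre transgene. Ppp1r1b had a mean of 1361.4 CPM in WT and 1673 CPM in KO libraries, with overlapping groups, and whether reads of the transgene add to its count was not tested. Stard3, between Ppp1r1b and Pnmt, had a ratio of 1.04, and Pgap3, beyond Pnmt, one of 1.07. Erbb2 and Mien1, further out, had ratios of 1.70 and 1.26, again with overlapping groups. Pnmt was the 1 member within 1 Mb of Ppp1r1b, and whether the transgene has a part in its level was not tested.

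**Figure D3:**
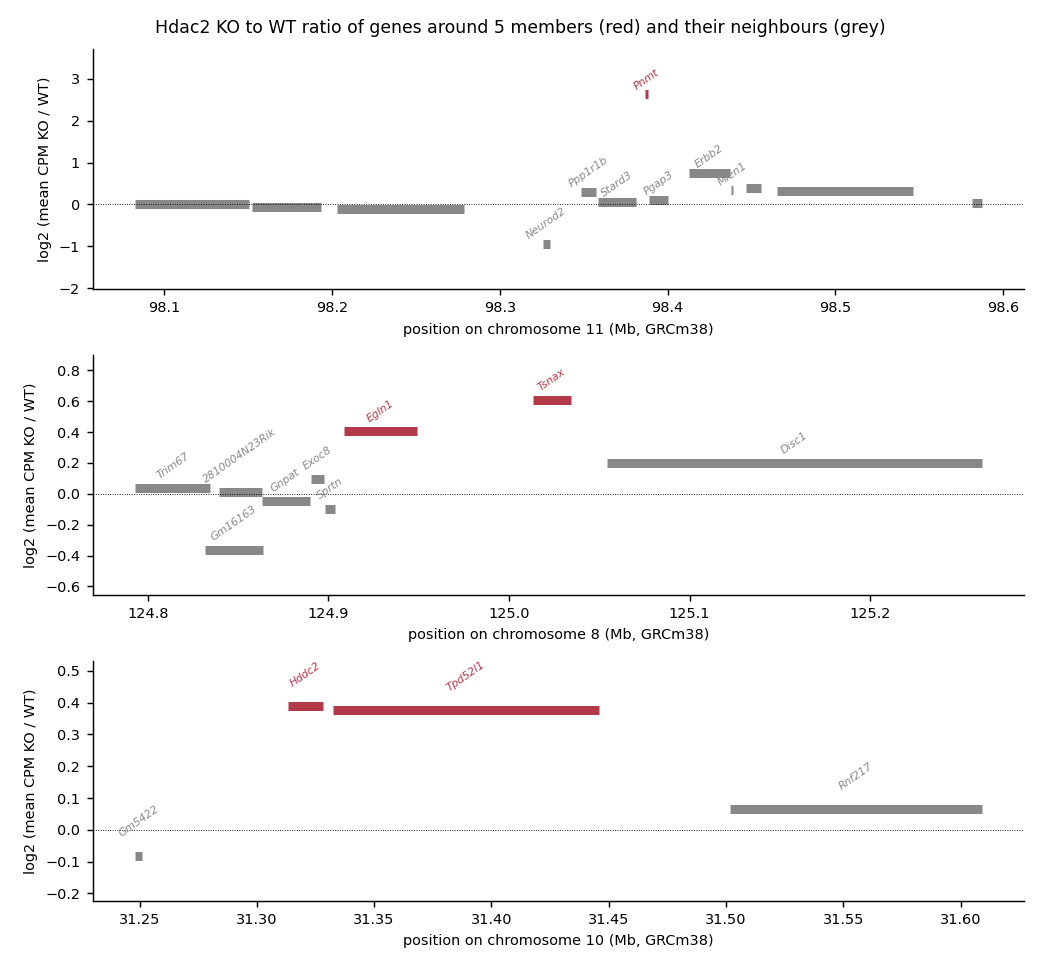
Ratio of the KO to the WT mean CPM (log2) of the eligible genes along 3 regions, with members marked. Pnmt stands at a ratio of 6.20 beside neighbours at 1.04 and 1.07, and the pairs Egln1 with Tsnax (1.33 and 1.52) and Hddc2 with Tpd52l1 (1.31 and 1.30) stand above the genes beside them.

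Promoter sequence is shown for 6 members: Wdr86, H2-Q2 and Stag3, which are among those with the largest ratios, and Hddc2, Tpd52l1 and Egln1, which lie in the neighbouring pairs. RefSeq windows from 250 bases before to 50 bases after the transcription start (GRCm38.p6) were held for 58 members, with 73 windows, and for 10863 of the eligible genes. The members without a window included Adamts10, Cys1, Fst, Gm13205, Gm26794, Hvcn1, Pip5k1b, Pnck, Pnmt and Tsnax. The windows were searched on both strands for the GC box (GGGCGG), the TATA box (TATAAA), the CCAAT box (CCAAT), the cyclic AMP response element (TGACGTCA), the E-box (CACGTG) and both parts of the REST element (TTCAGCACC and GGACAGCGC). A GC box was in 65.8% of member windows, against 35.7% of all 32841 windows and 61.7% of the 13798 windows of eligible genes. The TATA box was in 4.11% (13.6% and 7.02%), the CCAAT box in 30.1% (37.4% and 37.2%) and the E-box in 12.3% (7.15% and 9.76%). The cyclic AMP response element was in 1.37% of member windows, the window of Spag6 (1.79% and 2.97%), and the parts of the REST element were in 0 member windows (0.371% and 0.405% of all windows). The median GC content was 61% in member windows against 60.7% in eligible windows, with a median of 17 and 20 CpG dinucleotides and observed to expected ratios of 0.625 and 0.741. A match is a description of letters and not a binding site.

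The windows are written 5′ to 3′ on the strand of the gene, with every match to these motifs, on either strand, in capitals. They are Wdr86 (chr5:24730631-24730930, minus strand), with an E-box, H2-Q2 (chr17:35342057-35342356, plus strand), with TATA boxes on both strands and a CCAAT box, Stag3 (chr5:138280259-138280558, plus strand), with a CCAAT box, an E-box and a GC box, Hddc2 (chr10:31313155-31313454, plus strand), where the GC box recurs in a tandem repeat, Tpd52l1 (chr10:31445909-31446208, minus strand), with CCAAT and GC boxes, and Egln1 (chr8:124949205-124949504, minus strand), with several GC boxes in a window of 86% GC.
Wdr86: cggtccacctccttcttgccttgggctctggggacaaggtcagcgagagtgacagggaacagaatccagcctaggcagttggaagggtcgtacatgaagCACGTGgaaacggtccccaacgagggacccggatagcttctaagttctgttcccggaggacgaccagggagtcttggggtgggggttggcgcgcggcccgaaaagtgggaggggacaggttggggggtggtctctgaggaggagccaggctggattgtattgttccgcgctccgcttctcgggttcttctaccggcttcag
H2-Q2: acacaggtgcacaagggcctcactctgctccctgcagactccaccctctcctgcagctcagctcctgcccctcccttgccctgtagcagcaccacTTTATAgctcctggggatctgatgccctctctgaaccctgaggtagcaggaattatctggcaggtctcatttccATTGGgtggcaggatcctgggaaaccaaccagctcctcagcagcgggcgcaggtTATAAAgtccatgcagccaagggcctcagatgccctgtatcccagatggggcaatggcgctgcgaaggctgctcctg
Stag3: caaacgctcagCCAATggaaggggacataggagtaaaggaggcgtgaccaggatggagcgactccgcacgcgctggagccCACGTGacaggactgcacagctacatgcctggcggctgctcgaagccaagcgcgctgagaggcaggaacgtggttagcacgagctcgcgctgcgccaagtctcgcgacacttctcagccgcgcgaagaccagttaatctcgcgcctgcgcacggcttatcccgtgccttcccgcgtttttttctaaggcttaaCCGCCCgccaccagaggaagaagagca
Hddc2: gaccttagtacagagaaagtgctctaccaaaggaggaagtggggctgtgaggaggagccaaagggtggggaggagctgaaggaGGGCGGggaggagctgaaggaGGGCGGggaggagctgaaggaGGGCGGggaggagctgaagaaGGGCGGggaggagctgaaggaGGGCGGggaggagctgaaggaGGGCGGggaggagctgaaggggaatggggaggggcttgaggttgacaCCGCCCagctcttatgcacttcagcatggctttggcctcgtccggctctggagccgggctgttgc
Tpd52l1: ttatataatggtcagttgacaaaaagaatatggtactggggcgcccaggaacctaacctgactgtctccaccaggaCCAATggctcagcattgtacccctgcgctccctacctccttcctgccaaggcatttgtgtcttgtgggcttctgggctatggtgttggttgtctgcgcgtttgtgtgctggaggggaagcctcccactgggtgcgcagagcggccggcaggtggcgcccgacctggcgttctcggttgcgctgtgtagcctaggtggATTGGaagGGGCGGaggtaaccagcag
Egln1: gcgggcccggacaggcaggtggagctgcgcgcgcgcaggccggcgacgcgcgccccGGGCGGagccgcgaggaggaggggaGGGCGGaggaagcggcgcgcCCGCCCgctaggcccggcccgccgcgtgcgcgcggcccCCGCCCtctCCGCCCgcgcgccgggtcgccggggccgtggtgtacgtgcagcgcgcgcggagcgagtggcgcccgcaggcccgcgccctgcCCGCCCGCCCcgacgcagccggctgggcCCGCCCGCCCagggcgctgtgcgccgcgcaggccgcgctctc

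The size of the shift was then set beside the Htt genotype. The median ratio of KO to WT over the members was 1.69 in Htt+/+ mice and 1.56 in HttQ111/+ mice. In the fit across all genes, the members' median log2 fold change was 0.71 (range 0.12 to 3.03) in Htt+/+ mice, a comparison in which 3056 of 17126 genes (17.8%) passed an adjusted p of 0.05. In HttQ111/+ mice it was 0.62 (range 0.13 to 2.87), where 2841 of 17169 genes (16.5%) passed. With extraction date in place of surrogate variables 822 and 331 genes passed, and the members' median log2 fold change was 0.76 and 0.65. The members were selected on these differences, so no test of them is given.

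Whether the shift differed between Htt backgrounds was tested by the interaction. The selection did not use this contrast, but it used the same 35 libraries and required no overlap on either background. Each member's spread within a Hdac2 genotype is thereby limited relative to its shift, so the members' interaction values are not independent of the selection. By edgeR it was past the threshold in 1 of 17346 genes (0.00577%), Fibcd1, which is not a member. It passed in 0 of the 69 members, where 14 members (20.3%) had an unadjusted p under 0.05 against 5.63% of all genes, and DESeq2 also gave 0 members. The interaction was below 0, a smaller shift in HttQ111/+ mice, in 55 members, with a median of -0.07. Over all genes 48.4% were above 0. Pnmt had the largest interaction of the members, at -0.90 (SE 0.24) with an adjusted p of 0.549, and in KO mice 11 of 11 HttQ111/+ libraries lay below the Htt+/+ mean, against 3 of 7 in WT mice. The interaction of Spag6 was -0.32 (SE 0.09) and that of Tsnax -0.24 (SE 0.07), neither past the threshold.

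Among KO mice, the HttQ111 allele changed 1 of 17110 genes (0.00584%) by edgeR, and that gene was the member Pnmt. DESeq2 gave 45 genes and the replicate block 23, each with Pnmt, whereas extraction date in place of surrogate variables gave 0. Pnmt RNA ran from 4.25 to 8.13 CPM (median 6.48) in Htt+/+ KO libraries. It ran from 2.07 to 5.09 CPM (median 3.23) in HttQ111/+ KO libraries. Of the 11 HttQ111/+ libraries 9 lay below the lowest Htt+/+ library, so the groups overlapped only at their edges. The log2 change was -0.75 (SE 0.13) with an adjusted p of 0.0329, and 11 of 11 HttQ111/+ KO libraries were below the Htt+/+ KO mean. In WT mice Pnmt ran from 0.616 to 0.877 CPM (median 0.732) in Htt+/+ and from 0.427 to 1.13 CPM (median 0.764) in HttQ111/+ libraries, which overlapped. Its log2 change there was 0.16 (SE 0.21, adjusted p of 0.857, with 3 of 7 HttQ111/+ libraries below the Htt+/+ mean).

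RNA was extracted on dates that partly follow genotype, so Pnmt was also read within dates. On 26 May the KO libraries of Htt+/+ mice had a mean of 7.14 CPM (n = 3) and those of HttQ111/+ mice 3.11 CPM (n = 3), with no overlap. On 31 May the means were 5.78 (n = 4) and 4.09 CPM (n = 2), and on 3 June 4.25 (n = 1) and 3.31 CPM (n = 5), with overlap on both dates: the 1 Htt+/+ library of 3 June lay below an HttQ111/+ library (4.95 CPM). The order of the means was the same on each of these dates. With extraction date in place of surrogate variables the log2 change was -0.86 with an adjusted p of 0.128, and over the 7 alternative settings the adjusted p ran from 0.000134 to 0.128. Among all 69 members, 15 (21.7%) had an unadjusted p under 0.05 in this comparison against 7.52% of all genes, and 46 lay below 0, with a median log2 change of -0.03.

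Among WT mice, the HttQ111 allele changed 69 of 17133 genes (0.403%) by edgeR and 0 of the members. Here 13 members (18.8%) had an unadjusted p under 0.05 against 10.9% of all genes, DESeq2 gave 0 members, and 47 members lay above 0, with a median log2 change of 0.03. With extraction date as a term, 419 of 17133 genes passed, among them the members 1500009L16Rik, Crabp1, Galnt16, Pnma3 and Rgs19. Comparisons within WT and within KO mice contrast different libraries, but they are not independent. Each fit used all 35 libraries to estimate the surrogate variables and the dispersion. With the compared groups alone, 0 genes passed in WT mice and 3, with Pnmt, in KO mice. Each comparison of Htt genotypes or sexes, the interaction included, also shares its libraries with the comparisons that the selection used.

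Averaged over both Hdac2 genotypes, the HttQ111 effect passed in 220 of 17346 genes (1.27%) and in 3 members, with 13 members (18.8%) at an unadjusted p under 0.05 against 12.3% of all genes. Crabp1 ran from 7.13 to 8.06 CPM (median 7.61) in Htt+/+ WT libraries and from 5.06 to 7.70 CPM (median 6.49) in HttQ111/+ WT libraries. In KO mice it ran from 10.6 to 12.1 CPM (median 11.4) and from 9.04 to 14.8 CPM (median 10.4). The HttQ111/+ values were mostly lower, with overlap in both genotypes. Its log2 change was -0.20 (SE 0.05, adjusted p of 0.0320), and 6 of 7 WT and 8 of 11 KO libraries of HttQ111/+ mice lay below their Htt+/+ mean. Its mean was lower in HttQ111/+ mice on each date with both genotypes: 6.89 against 7.59 CPM on 24 May, 5.24 against 7.63 CPM on 25 May and 6.96 against 7.59 CPM on 27 May in WT mice, and 10.99 against 11.33 CPM on 26 May, 10.1 against 11.4 CPM on 31 May and 10.9 against 11.5 CPM on 3 June in KO mice.

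Hvcn1 ran from 8.35 to 12.7 CPM (median 11.03) in Htt+/+ WT and from 6.67 to 12.4 CPM (median 8.74) in HttQ111/+ WT libraries. In KO mice it ran from 14.4 to 23.1 CPM (median 19.7) in Htt+/+ and from 13.7 to 20.4 CPM (median 16.4) in HttQ111/+ libraries, so the Htt groups overlapped in both. Its log2 change was -0.22 (SE 0.06, adjusted p of 0.0473), with 6 of 7 WT and 9 of 11 KO libraries of HttQ111/+ mice below their Htt+/+ mean. The means within dates were lower in HttQ111/+ mice on 25 May (7.61 against 10.4 CPM), 27 May (8.22 against 11.3 CPM), 26 May (17.3 against 20.9 CPM), 31 May (17.1 against 17.6 CPM) and 3 June (16.4 against 19.5 CPM), and slightly higher on 24 May (10.8 against 10.7 CPM).

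Lrrc9 went the other way. It ran from 7.82 to 12.5 CPM (median 10.6) in Htt+/+ WT and from 8.93 to 13.1 CPM (median 10.2) in HttQ111/+ WT libraries. In KO mice it ran from 14.4 to 18.3 CPM (median 16.9) in Htt+/+ and from 13.7 to 21.0 CPM (median 18.4) in HttQ111/+ libraries, again with overlap. Its log2 change was 0.15 (SE 0.04, adjusted p of 0.0389), with 3 of 7 WT and 8 of 11 KO libraries of HttQ111/+ mice above their Htt+/+ mean. It shrank to 0.05 without surrogate variables, 0.10 with extraction date and 0.04 with the replicate block, none past the threshold. Within dates the mean was higher in HttQ111/+ mice on 24 May (9.52 against 8.56 CPM), 25 May (11.4 against 9.84 CPM), 27 May (12.4 against 11.9 CPM), 31 May (18.2 against 17.0 CPM) and 3 June (17.8 against 14.4 CPM), and lower on 26 May (16.9 against 17.8 CPM). The calls of Crabp1, Hvcn1 and Lrrc9 were each lost under some of the alternative settings. Other members passed in some of them. They were Pnmt without surrogate variables, Afmid with extraction date, Cgref1 by DESeq2, and Afmid, Cgref1, Pip5k1b and Pnmt with the replicate block. Those settings called 245, 403, 367 and 365 of 17346 genes. In the same averaged comparison 10 of 18 markers of medium-spiny neurons were lower in HttQ111/+ mice and 0 higher, with a median log2 change of -0.15, and among them the most abundant, Arpp21, changed by -0.23 (SE 0.04). In WT mice alone edgeR called 6 of 18 lower, with 13 at an unadjusted p under 0.05 and 10 called by DESeq2. In KO mice alone it called 0 of 18, with 11 at an unadjusted p under 0.05 and 2 called by DESeq2. The median log2 changes were -0.18 in WT mice and -0.12 in KO mice. The part of these markers in the levels of Crabp1 and Hvcn1 was not tested.

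The comparison of males with females called no member past the threshold: edgeR called 14 of 17346 genes (0.0807%) and 0 members, with 12 members (17.4%) at an unadjusted p under 0.05 against 8.32% of all genes, and DESeq2 called 0 members.

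Extraction date was almost separate between Hdac2 genotypes. WT libraries came from 24, 25 and 27 May (5 each), and KO libraries from 26 May, 31 May and 3 June (6 each), with 1 further KO library on 25 May (HttQ111/+) and 1 on 27 May (Htt+/+). On 25 May the KO library lay above the WT mean in each member, with a median ratio of 1.56 (range 1.06 to 9.07). On 27 May the median ratio was 1.59 (range 1.14 to 10.8). Wdr86, for example, was at 4.03 CPM in the KO library of 25 May against 0.307 to 0.636 CPM in the 5 WT libraries of that date, and at 5.16 CPM on 27 May against 0.428 to 0.536 CPM. Rreb1 was at 119.9 CPM against 38.8 to 54.2 CPM on 25 May, and at 163 CPM against 46.7 to 54.6 CPM on 27 May. That a KO library lay above the WT libraries of its date is fixed by the rule and is no test of date. The size of the difference within these dates is given as a description, and its median was close to the 1.61 over all libraries, with 1 KO library on each date.

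Markers of striatal cells were set beside the members, and no member is in any of the 13 marker lists. The summed level of 18 medium-spiny neuron markers was 11347 CPM in WT and 11385 CPM in KO libraries, a ratio of 1.00, and their most abundant gene, Arpp21, was at 2081 and 1930.5 CPM. In bulk striatum fewer cells of a type and less RNA per cell cannot be told apart. Among these genes, Ppp1r1b and Tac1 were higher in KO mice on the Htt+/+ background, and those that were lower included Rarb, Meis2 and Drd2. On the HttQ111/+ background Ppp1r1b and Tac1 were higher and Rarb lower. The log2 changes of Tac1, which encodes substance P, were 0.27 (SE 0.05) and 0.29 (SE 0.04), and those of the retinoic acid receptor Rarb -0.30 (SE 0.06) and -0.24 (SE 0.05).

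Summed levels of other cells' markers were compared in the same way. The ratio of KO to WT was 1.02 for interneurons (most abundant Sst), 1.08 for astrocytes (Aldoc), 1.07 for oligodendrocytes, 1.09 for their precursors (Pdgfra) and 1.10 for microglia. It was 1.11 for endothelial cells (Slco1c1), 1.08 for mural cells (Rgs5), 1.03 for ependymal cells (Foxj1), 1.01 for immature neurons (Dcx) and 1.11 for meningeal cells (Igf2). Of 44 tested genes in the 8 glial, vascular, ependymal and meningeal lists, edgeR called 0 on the Htt+/+ background (3 at an unadjusted p under 0.05, 1 by DESeq2) and 0 on the HttQ111/+ background (2 at an unadjusted p under 0.05, 0 by DESeq2). Elsewhere Nos1 and Ttr were lower and Cux2, Sox11, Dcx and Clic6 higher on the Htt+/+ background, and Clic6 was higher on the HttQ111/+ background. Markers of cortical projection neurons, which come with adjacent tissue, varied most between libraries: their sum ran from 30.2 to 462 CPM in WT and from 33.2 to 204 CPM in KO libraries, with the highest value in HttQ111/+ WT replicate 7, a ratio of mean sums of 0.724 that became 1.07 without that library, and Slc17a7 was the most abundant (43.3 and 24.3 CPM). Choroid plexus markers summed to 16.2 to 200.2 CPM in WT and 22.2 to 145 CPM in KO libraries, a ratio of mean sums of 0.735, or 0.905 without the highest WT library. The part of these tissue differences in the members' levels was not tested.

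The complexes that hold HDAC2 were read from a list of 52 subunits and class I deacetylases. On the Htt+/+ background 9 were higher and 5 lower in KO mice, and on the HttQ111/+ background 7 were higher and 5 lower, Hdac2 itself among the latter. Over all genes 17.8% and 16.5% were called in these comparisons. Higher in both were the paralog Hdac1 (0.54 and 0.49 on the log2 scale), the NuRD subunits Chd3 (0.54 and 0.35) and Mta3 (0.38 and 0.27), and the Sin3 subunits Ing1 (0.21 and 0.22) and Suds3 (0.13 and 0.13). Genes lower in both included Brms1 (-0.45 and -0.33) and Zmym2. Rest, which encodes the repressor of neuronal genes, was higher on the HttQ111/+ background (0.34). Only Hdac1 in the list met the rule of full separation, with means of 6.25 CPM in WT and 9.23 CPM in KO libraries, and it is not counted among the members. The HttQ111 allele changed 0 of the 52 in WT mice by edgeR (8 at an unadjusted p under 0.05, 0 by DESeq2) and 0 in KO mice (5 at an unadjusted p under 0.05, 0 by DESeq2).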

How the data were processed

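Striatal RNA of 35 mice was sequenced in stranded libraries, 1 per mouse. The authors aligned the read pairs with GSNAP to the mouse genome (GRCm38) and used bedtools multibamcov for the number of unique alignments at each Ensembl gene. The values used are these raw counts as deposited, and 1 further mouse left out by the authors is not among them. Members and lists were chosen with earlier results of these data known.

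CPM took the total outside the ERCC spike-ins. Comparisons across all genes used R 4.3.3, edgeR 4.0.16 (quasi-likelihood F test, TMM scaling, robust dispersion) and surrogate variables from sva 3.50.0, with limma 3.58.1, on genes that spanned over 250 bases and had 6 or more counts in all libraries of 1 or more of the compared groups. The sex comparison had no surrogate variables. Adjustment of p values was by Benjamini and Hochberg across the full set of tested genes, with a threshold of 0.05. Alternatives were no surrogate variables, extraction date, a replicate block, DESeq2 1.42.0 size factors and Wald test, no count filter beyond a total of 10, and the compared groups alone. The procedure was tested on simulated data. Tables and plots were made in Python 3.11.15.

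Genes named with values were the 20 members with the largest ratio, the 5 with the highest WT mean, 5 on either side of the threshold, members past a threshold in a comparison or in a gene family or list, neighbours within 100 kb, members within 1 Mb of Hdac2 or Ppp1r1b, and list genes called in the Hdac2 comparisons. Other members were named with their ratio or means, and many with their role. A member and 4 list genes are not reported here. Promoters came from RefSeq (GRCm38.p6), and other annotation from GENCODE M21.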

Additional observations from a re-analysis of the deposited data

Results flagged for a closer look

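In 120 sets of 1 named gene in 1 genotype group of up to 10 mice, the lowest or highest library was compared with the others by Dixon's test. The genes were named members and Hdac2, and 4 sets were past the critical value. Chance gives about 1 in 20 sets. H2-Q2 was at 4.06 CPM in Htt+/+ KO replicate 1, extracted on 3 June, against 8.46 to 11.7 CPM in the other libraries of its group. Tsnax was at 188 CPM in HttQ111/+ WT replicate 7, against 209 to 223 CPM in the others, and that library also had the highest sum of cortical markers (462 CPM). Gm26794 was at 0.651 CPM in Htt+/+ WT replicate 9, against 1.00 to 1.26 CPM in the others. 4833422C13Rik was at 8.18 CPM in Htt+/+ KO replicate 4, against 3.77 to 5.91 CPM in the others. The causes were not tested.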

How the results depend on the processing

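The number of fully separated genes was 55 to 76 under other totals, CPM minimums or spans. Of the 69 members 48 were kept with TMM-scaled totals, 61 without mitochondrial counts and 55 at a minimum of 5 CPM. With fewer libraries it was 193 (males only), 464 (Htt+/+ only), 158 (HttQ111/+ only) and 433 (without 25 and 27 May), where fewer libraries have to be separated, so that the 69 members are kept by construction. With extraction date in place of surrogate variables, genes called were 822 and 331 for Hdac2 KO on the Htt+/+ and HttQ111/+ backgrounds (64 and 49 members, a description since the rule used these values), 419 (5 members) for HttQ111 in WT mice, 0 (0 members) in KO mice, 0 for the interaction and 403 for the average HttQ111 effect. With the replicate block they were 4351 and 1854 for Hdac2 KO on the Htt+/+ and HttQ111/+ backgrounds, 13 and 23 for HttQ111 in WT and KO mice, 0 for the interaction, 365 for the average and 9 for sex. Replicate numbers do not pair the mice: correlations of like-numbered libraries ran from -0.206 to 0.282. DESeq2 gave 154 and 45 genes for HttQ111 in WT and KO mice, 3 for the interaction, 367 for the average and 30 for sex. Without the count filter these were 39 and 4 for HttQ111 in WT and KO mice and 0 for the interaction. With the compared groups alone, 5094 genes were called for Hdac2 KO on the Htt+/+ background, and 0 and 3 for HttQ111 in WT and KO mice. Without surrogate variables the interaction gave 0 genes and the average HttQ111 effect 1 member. Pnmt kept its side of the threshold in 6 of 7 alternatives (-1.01 to -0.73, adjusted p 0.000134 to 0.128). Crabp1 did so in 4 of 6 (-0.21 to -0.19, adjusted p 0.0103 to 0.0879), Hvcn1 in 3 of 6 (-0.28 to -0.22, adjusted p 0.0123 to 0.0983) and Lrrc9 in 3 of 6 (0.04 to 0.17, adjusted p 0.0125 to 0.816), each with an unchanged direction. Beyond the libraries left out, the cause was not tested. Members with the fewest reads had as few as 6 counts in 1 library.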
